A study of Mus musculus with 8 samples.

Results

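Semaphorins and their plexin and neuropilin receptors, together with ephrins and their Eph receptors, were examined in AML12 cells, a mouse hepatocyte line, on MoGene 2.0 ST arrays. The genes were selected by symbol from the platform annotation, which gave 53 genes on 56 transcript clusters, out of 22180 genes tested and 41345 clusters in all. Each of the 56 clusters carried a single symbol. The symbols did not depend on expression, but the group was proposed after the rises of Sema3c and Efnb2 in this same comparison had been seen. The changes below are therefore a description of the group, and counts of its changed genes are not evidence that it stands apart from other genes.

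The study had 2 groups of 4 arrays. AML12 cells stably expressing Zfp125, which encodes a zinc finger protein, were compared with AML12 cells carrying the empty vector (EV), all under G418 selection and in control medium. The labels do not say whether a group is a single clone or a pool of selected cells, nor whether its 4 samples were separate cultures, so the p-values speak only to the spread among the samples, some of which may be technical. Zfp125 itself is not analysed here, and its level was therefore not used to check the labels. Values are log2 expression, changes are Zfp125 minus EV with the standard error (SE) of the fit, and means carry their SD (n = 4 arrays in each group). Adjusted p-values come from limma over all 22180 genes, and the threshold for a call was 0.05.

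Semaphorins are secreted or membrane-bound ligands that steer axons, vessels and migrating cells. Plexins are their signalling receptors, and most secreted class 3 semaphorins first bind a neuropilin, which presents them to a plexin. Ephrins are ligands held on the cell surface, by a lipid anchor in the A subfamily and by a transmembrane segment in the B subfamily, and Eph receptors are the receptor tyrosine kinases of neighbouring cells that bind them. In epithelia these pairs take part in sorting cells and in setting borders between them, and Efnb2 with Ephb4 is best known for separating arteries from veins.

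The promoters of the 3 ligand genes that rose, and of Sema6b, the ligand gene with the lowest change, are shown because they are the DNA nearest to the changes described below. Each line holds the 250 bases upstream of the annotated start, 5' to 3' on the gene's strand, from RefSeq on GRCm38.p6, at chr5:17574566-17574815 (plus strand) for Sema3c, chr8:8661243-8661492 (minus strand) for Efnb2, chr10:80179232-80179481 (plus strand) for Efna2 and chr17:56140344-56140593 (minus strand) for the first of 2 listed starts of Sema6b. Capitals mark the GC box GGGCGG and the CCAAT box, on either strand.
Sema3c: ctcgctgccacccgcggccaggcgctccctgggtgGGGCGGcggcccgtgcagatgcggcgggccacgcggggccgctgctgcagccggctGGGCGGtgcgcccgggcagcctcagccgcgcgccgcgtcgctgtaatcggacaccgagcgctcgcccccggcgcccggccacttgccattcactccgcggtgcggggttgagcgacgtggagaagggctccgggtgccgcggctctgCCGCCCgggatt
Efnb2: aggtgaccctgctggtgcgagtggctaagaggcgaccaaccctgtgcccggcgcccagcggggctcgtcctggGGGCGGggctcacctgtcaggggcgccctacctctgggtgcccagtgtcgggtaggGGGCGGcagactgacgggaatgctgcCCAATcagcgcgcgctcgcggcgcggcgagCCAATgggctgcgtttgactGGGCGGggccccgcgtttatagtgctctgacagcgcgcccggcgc
Efna2: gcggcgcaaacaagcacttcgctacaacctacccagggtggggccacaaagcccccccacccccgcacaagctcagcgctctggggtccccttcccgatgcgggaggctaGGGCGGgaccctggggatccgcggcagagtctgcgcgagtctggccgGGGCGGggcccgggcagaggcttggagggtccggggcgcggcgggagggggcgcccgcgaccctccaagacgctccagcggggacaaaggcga
Sema6b: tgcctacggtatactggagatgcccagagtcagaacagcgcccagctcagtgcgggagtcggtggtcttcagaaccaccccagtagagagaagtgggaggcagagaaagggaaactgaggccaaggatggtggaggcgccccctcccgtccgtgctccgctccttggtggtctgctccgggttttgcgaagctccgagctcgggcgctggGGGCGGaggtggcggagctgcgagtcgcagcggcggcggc

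GC boxes numbered 3 in the Sema3c promoter, 3 in that of Efnb2, 2 in that of Efna2 and 1 in that of Sema6b. The Efnb2 promoter also held 2 CCAAT boxes and the TATA box TATAAA, read on the opposite strand, 30 bases before the start. The bases G and C made up 78.4%, 72.0%, 73.6% and 66.0% of these 4 stretches, against a median of 64.2% over the 60 promoters listed for 46 genes of the group and 52.4% over all 32851 promoters. A GC box occurred in 46 of the 60 promoters (76.7%), against 32.7% of all promoters. A TATA box occurred in 1.67% against 12.4%, a CCAAT box in 30.0% against 33.8%, the E-box CANNTG in 46.7% against 66.2% and the AP-1 site TGANTCA in 5.0% against 6.75%. The forkhead site TGTTTAC was in 0 of the 60 promoters and in 3.17% of all. These are matches of letters on both strands, and a site of one name may overlap another. The group's promoters were richer in G and C than all promoters, and no set matched for this was compared. Whether the shares are traits of the group was therefore not tested.

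The array as a whole gave the setting for these genes. Array medians lay between 4.32 and 4.37. Of 9 measured hepatocyte markers, 6 were called lower in Zfp125 cells and 0 higher (limma), where 0.636% of all genes were called lower. Hnf4a, Apob and Ttr were not called, at -0.38 ± 0.09, -0.07 ± 0.09 and 0.08 ± 0.10, and the list's mean level ran from 10.01 to 10.27 on EV arrays and from 9.45 to 9.78 on Zfp125 arrays. Alb, which encodes serum albumin, stayed bright, at 12.96 ± 0.09 and 12.48 ± 0.06. No marker was called among 5 biliary, 9 endothelial, 9 stellate and fibroblast, 8 macrophage, or 8 neuron and glia genes (limma). At an unadjusted p under 0.05 these lists held 3 genes: Sox9 (0.28 ± 0.09) and Des (0.34 ± 0.13) above 0 and Cd14 (-0.31 ± 0.08) below. At that p, 5.43% of all genes lay above 0 and 5.50% below. The endothelial list, whose cells are the usual site of many of the genes described here, had mean levels of 4.09 to 4.15 on EV and 4.00 to 4.19 on Zfp125 arrays, just below the median of all clusters, 4.34. Its brightest markers were Pecam1 at 4.76 ± 0.10 and 4.69 ± 0.19, Kdr at 4.53 ± 0.37 and 4.41 ± 0.12 and Tie1 at 4.43 ± 0.07 and 4.42 ± 0.18. The fall of the hepatocyte markers moved with the same comparison, and its part in the changes below was not tested. On bulk arrays, fewer cells of a type and less RNA per cell cannot be told apart.

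In Zfp125 cells 3 of the 53 genes rose and 0 fell, where 0.446% of all genes tested rose and 0.636% fell. The 3 were the secreted semaphorin Sema3c and the ephrins Efnb2 and Efna2, and all are ligands: 3 of 28 ligand genes and 0 of 24 receptor genes were called (limma). At an unadjusted p under 0.05, 6 ligands lay above 0 and 1 below, and 5 receptors above and 4 below. Over the whole group at that p, 11 of the 53 lay above 0 and 5 below, where 5.43% and 5.50% of all genes did. Groups did not overlap for 10 genes that were higher and 1 that was lower, where 3.71% and 3.58% of all genes showed this. The median change was 0.0451 over the 53 genes, 0.0622 over the ligands and 0.0334 over the receptors, beside -0.00268 over all genes. Without replicate 1 of the EV cells the ligand median was 0.02, and without replicate 4 of the Zfp125 cells the receptor median was -0.01. Changes of at least 0.25 in either direction occurred in 7 of 28 ligands, 5 of 24 receptors and 9.79% of all genes. The difference between ligands and receptors was not tested.

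**Figure D1:**
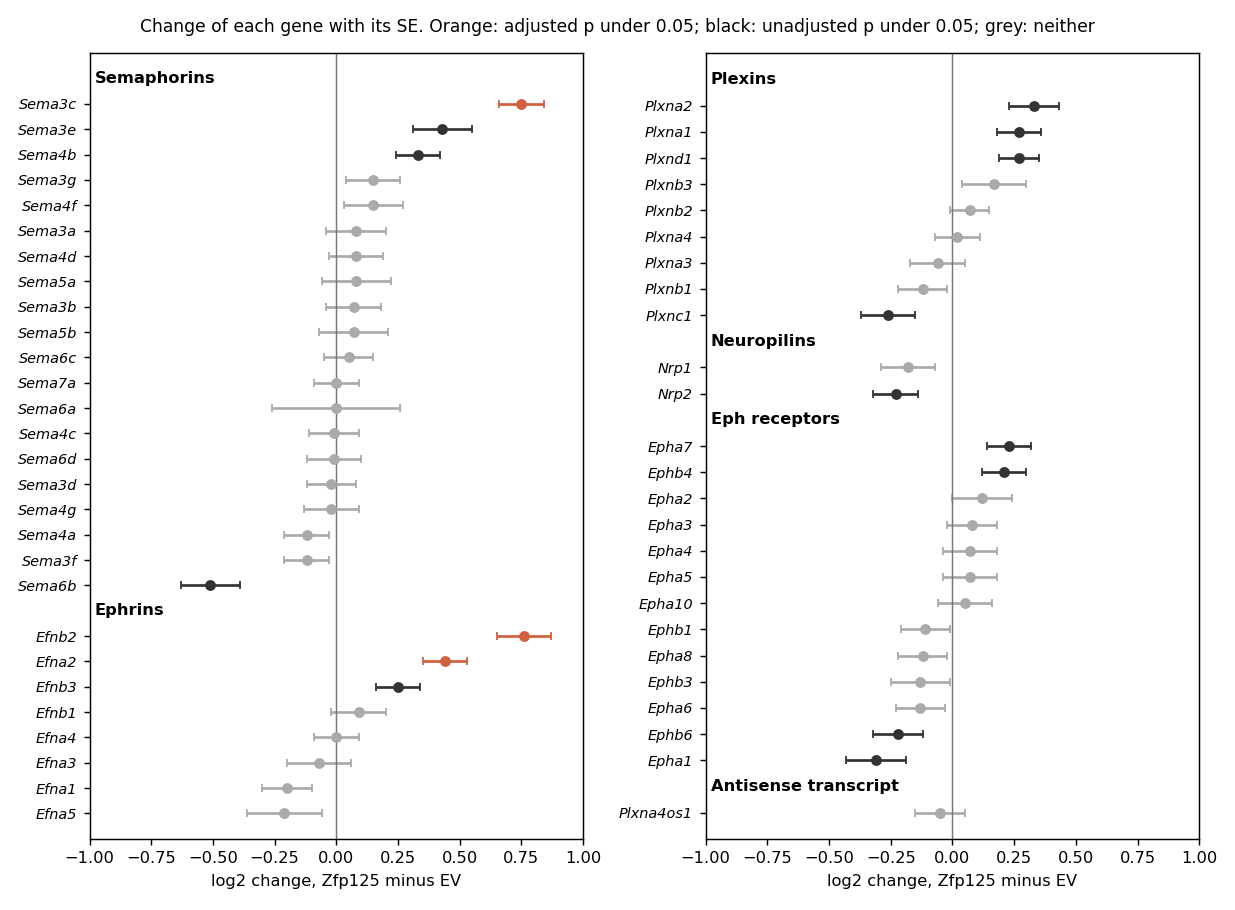
Change of each of the 53 genes (x axis, log2, Zfp125 minus EV) with its SE, ordered by size within each family. Orange points passed an adjusted p under 0.05, black points only an unadjusted p under 0.05; the 3 orange points are Sema3c, Efnb2 and Efna2, and every receptor lies between -0.31 and 0.33.

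Sema3c, a secreted class 3 semaphorin known for the outflow tract of the heart and for growth of several carcinomas, was 1.68-fold higher in Zfp125 cells. The EV arrays read 5.45, 5.29, 5.51 and 5.50, and the Zfp125 arrays 6.22, 6.32, 6.13 and 6.09. Every Zfp125 array lay above every EV array, with a gap between the groups several times the SD within either. Means were 5.44 ± 0.10 and 6.19 ± 0.10, a rise of 0.75 ± 0.09 (limma, adjusted p = 0.00122). When any 1 array was left out the rise was 0.70 to 0.79 and the adjusted p 0.00274 to 0.00688.

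Efnb2, the transmembrane ephrin that marks arterial endothelium, was 1.7-fold higher. Its EV arrays read 5.97, 5.88, 5.58 and 5.61, and its Zfp125 arrays 6.46, 6.46, 6.61 and 6.58. The EV values spread further than the Zfp125 values, yet the groups stayed apart. Means were 5.76 ± 0.19 and 6.53 ± 0.08, a rise of 0.76 ± 0.11 (limma, adjusted p = 0.00297). The rise was 0.70 to 0.83 when 1 array was left out, with an adjusted p of at most 0.014, but without variance moderation the call ended (adjusted p = 0.0819).

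Efna2, a lipid-anchored ephrin best known in the developing brain, was 1.36-fold higher. The EV arrays were nearly identical, at 4.84, 4.83, 4.83 and 4.81, and the Zfp125 arrays read 5.20, 5.37, 5.40 and 5.12. All Zfp125 values lay above all EV values. Means were 4.83 ± 0.01 and 5.27 ± 0.14, a rise of 0.44 ± 0.09 (limma, adjusted p = 0.0355). With 1 array left out this call ended in 7 of 8 cases, at an adjusted p of up to 0.127, and it held only when the array left out was Zfp125 replicate 4 (adjusted p = 0.0345). It also ended without variance moderation (adjusted p = 0.097), when p-values were adjusted over all clusters of the table (adjusted p = 0.123) and with the replicate number as a block (adjusted p = 0.0834). The direction was the same in each of these settings, with changes of 0.40 to 0.50 when 1 array was left out.

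**Figure D2:**
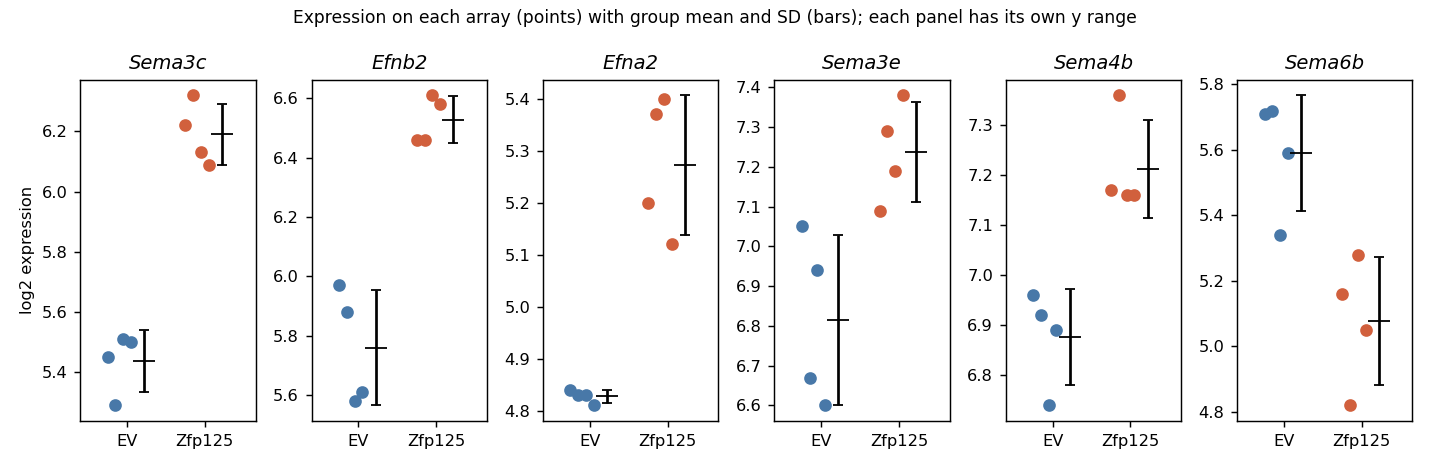
Log2 expression on each array (points) with the group mean and SD (bars) for the 6 ligand genes with the smallest p; each panel has its own y range. In every panel the 4 EV and 4 Zfp125 arrays do not overlap, and only Sema6b is lower in Zfp125 cells.

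Among the other semaphorins, 3 had an unadjusted p under 0.05. Sema6b, a transmembrane class 6 semaphorin, read 5.71, 5.72, 5.34 and 5.59 in EV cells and 5.16, 4.82, 5.28 and 5.05 in Zfp125 cells. The groups did not overlap, with EV replicate 3 and Zfp125 replicate 3 closest to each other. Its change of -0.51 ± 0.12 missed the threshold (limma, adjusted p = 0.0617) and passed it when EV replicate 3 was left out (-0.60, adjusted p = 0.0456), with a trended, robust prior (adjusted p = 0.0238), and among clusters above the 25th percentile (adjusted p = 0.0457) or the median level (adjusted p = 0.022).

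Sema3e, a class 3 semaphorin that binds Plxnd1 directly without a neuropilin, read 7.05, 6.67, 6.94 and 6.60 in EV cells and 7.09, 7.29, 7.19 and 7.38 in Zfp125 cells. The groups touched closely, at 7.05 and 7.09, and the change was 0.43 ± 0.12 (limma, adjusted p = 0.124). Sema4b, a membrane-bound class 4 semaphorin, read 6.96, 6.92, 6.74 and 6.89 in EV cells and 7.17, 7.36, 7.16 and 7.16 in Zfp125 cells, a change of 0.33 ± 0.09 with no overlap (limma, adjusted p = 0.134). With a trended, robust prior Sema3e and Sema4b passed the test too (adjusted p = 0.0295 and 0.0318).

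The remaining 16 semaphorins had changes between -0.12 and 0.15, and the groups of each overlapped. Over the whole family of 20 the median change was 0.06. By class, the medians were 0.08 for 7 secreted class 3 genes, 0.04 for 6 genes of class 4, 0.08 for 2 of class 5 and -0.01 for 4 of class 6. Sema7a, the lipid-anchored semaphorin, had means of 4.98 ± 0.13 and 4.98 ± 0.06. Sema6a was the least reproducible, with EV arrays at 3.30, 4.51, 3.71 and 2.84 and an SD of 0.71 against 0.20 in Zfp125 cells, and its SE of 0.26 was the largest among the 53 genes.

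Over all 8 ephrins, 3 of 3 B members and 2 of 5 A members had a change above 0, where 10920 of all 22180 genes did. The 2 A members were Efna2 and Efna4, and Efna4 lay at 0.00 ± 0.09. The difference between subfamilies was not tested. Efnb3, a transmembrane ephrin of the nervous system, read 4.90, 4.96, 5.04 and 4.85 in EV cells and 5.26, 5.14, 5.27 and 5.10 in Zfp125 cells. The groups did not overlap, and the change was 0.25 ± 0.09 (limma, adjusted p = 0.269). Efnb1, which acts in craniofacial and skeletal development, had means of 6.61 ± 0.13 and 6.70 ± 0.17 and a change of 0.09 ± 0.11. That change was 0.01 without Zfp125 replicate 2.

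Efna1, a ligand of Epha2 induced by inflammatory signals, read 7.35, 7.16, 7.04 and 7.40 in EV cells and 7.01, 6.90, 7.09 and 7.14 in Zfp125 cells. These groups overlapped, with a change of -0.20 ± 0.10 (limma, adjusted p = 0.512). Efna5 had a change of -0.21 ± 0.15, Efna3 of -0.07 ± 0.13 and Efna4 of 0.00 ± 0.09, and the groups of each overlapped. Leaving out 1 array moved the change of Efna5 to between -0.28 and -0.06 (-0.06 without Zfp125 replicate 1, -0.09 without EV replicate 3) and that of Efna3 to between -0.16 and 0.06. Efna1, Efna3 and Efna4 are neighbours on the mouse genome.

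Of 9 plexin genes 0 were called (limma), where 0.446% of all genes rose and 0.636% fell. At an unadjusted p under 0.05, 3 lay above 0 and 1 below, where 5.43% and 5.50% of all genes did. The family median was 0.07. Plxna2, a receptor of class 6 semaphorins, read 6.38, 6.10, 6.15 and 6.20 in EV cells and 6.49, 6.41, 6.57 and 6.67 in Zfp125 cells. Its groups did not overlap, and the change was 0.33 ± 0.10 (limma, adjusted p = 0.175). Plxnd1, the receptor of Sema3e, read 6.90, 6.93, 6.79 and 6.83 against 7.08, 7.16, 7.11 and 7.20, a change of 0.27 ± 0.08 with no overlap (limma, adjusted p = 0.194). The spread within each group, 0.07 and 0.05, was small beside that difference.

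Plxna1, which pairs with neuropilins, read 7.56, 7.41, 7.38 and 7.43 in EV cells and 7.59, 7.70, 7.68 and 7.90 in Zfp125 cells on its brighter cluster, a change of 0.27 ± 0.09 (limma, adjusted p = 0.269). Its other cluster had means of 5.92 ± 0.07 and 5.91 ± 0.09, a change of -0.01 ± 0.08, so the 2 clusters gave different values. Plxnc1, the receptor of Sema7a, was dim, with means of 3.14 ± 0.13 and 2.89 ± 0.16 and a change of -0.26 ± 0.11 (limma, adjusted p = 0.373). Plxnb2, a receptor of class 4 semaphorins that is widespread in epithelia, was bright and steady, at 9.25, 9.25, 9.17 and 9.35 in EV cells and 9.29, 9.36, 9.31 and 9.33 in Zfp125 cells, a change of 0.07 ± 0.08. Plxnb1, Plxnb3, Plxna3 and Plxna4 had changes between -0.12 and 0.17. The antisense transcript Plxna4os1, which the symbol rule also takes in and which was left out of the family counts, had a change of -0.05 ± 0.10.

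Neither of the 2 neuropilins was called (limma), and their changes lay below 0. Nrp2, which binds Sema3c and Sema3f, read 4.78, 4.72, 4.73 and 4.57 in EV cells and 4.63, 4.39, 4.40 and 4.46 in Zfp125 cells, a change of -0.23 ± 0.09 with overlap (limma, adjusted p = 0.362). Nrp1, the receptor of Sema3a and a co-receptor for vascular endothelial growth factor, averaged 4.24 ± 0.04 and 4.06 ± 0.22, under the array's median level, with a change of -0.18 ± 0.11.

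Of 13 Eph receptor genes 0 were called (limma), where 0.446% of all genes rose and 0.636% fell. At an unadjusted p under 0.05, 2 lay above 0 and 2 below, where 5.43% and 5.50% of all genes did. The family median was 0.05. Ephb4, the receptor of Efnb2, read 6.86, 7.04, 6.98 and 7.07 in EV cells and 7.24, 7.25, 7.12 and 7.18 in Zfp125 cells. It was the 1 Eph receptor whose groups did not overlap, with a change of 0.21 ± 0.09 short of the threshold (limma, adjusted p = 0.383). Over all genes, groups did not overlap for 3.71% that were higher and 3.58% that were lower. Epha7 had means of 5.62 ± 0.08 and 5.85 ± 0.09, a change of 0.23 ± 0.09 (limma, adjusted p = 0.338), with groups that met at 5.72.

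Epha1, an Eph receptor of epithelia, read 5.36, 5.27, 5.54 and 5.34 in EV cells and 4.78, 5.33, 5.03 and 5.11 in Zfp125 cells, a change of -0.31 ± 0.12 (limma, adjusted p = 0.312). Only Zfp125 replicate 2 reached into the EV range. Ephb6, which lacks kinase activity, had means of 4.78 ± 0.12 and 4.56 ± 0.11 and a change of -0.22 ± 0.10 (limma, adjusted p = 0.411). Epha2, a receptor of Efna1 common in epithelial and tumour cells, had a change of 0.12 ± 0.12, Epha4 of 0.07 ± 0.11 and Ephb3 of -0.13 ± 0.12, and the groups of each overlapped. That of Epha4 turned to -0.03 without replicate 4 of the Zfp125 cells, that of Epha2 was 0.02 without EV replicate 4, and that of Ephb3 was -0.02 without Zfp125 replicate 2.

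Ephb1 had 2 clusters that moved in opposite directions. The brighter had a change of -0.11 ± 0.10, from 4.28 ± 0.12 to 4.17 ± 0.10, and the other of 0.40 ± 0.10, from 4.00 ± 0.17 to 4.40 ± 0.09 (limma over all clusters, adjusted p = 0.79 and 0.227). Neither passed, all 4 means lay near the median of all clusters, and the direction of Ephb1 is not settled. The 2 clusters of Plxnb1 had changes of -0.12 ± 0.10 and -0.05 ± 0.17.

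Ligands were set beside a receptor each is known to bind, for 8 pairs. The pairs were drawn from textbook knowledge after the values were seen, and other pairings were not set out. Efnb2 and Ephb4 lay at 0.76 ± 0.11 and 0.21 ± 0.09, and Sema3e and Plxnd1 at 0.43 ± 0.12 and 0.27 ± 0.08. In both of these pairs the ligand and the receptor separated the groups without overlap, and in the first the ligand alone passed the test. Sema3c and Nrp2 pointed in opposite directions, at 0.75 ± 0.09 and -0.23 ± 0.09, but the groups of Nrp2 overlapped. The plexins to which neuropilins present class 3 semaphorins were not paired with Sema3c. Plexin A genes had changes of -0.06 to 0.33, and Plxnd1 of 0.27 ± 0.08. Efna1 and Epha2 lay at -0.20 ± 0.10 and 0.12 ± 0.12. In the other 4 pairs, Sema4d with Plxnb1, Sema4c with Plxnb2, Sema6a with Plxna2 and Sema7a with Plxnc1, the ligand lay between -0.01 and 0.08. Their receptors lay at -0.12 ± 0.10, 0.07 ± 0.08, 0.33 ± 0.10 and -0.26 ± 0.11. The ligand Sema6a was poorly determined, at 0.00 ± 0.26 and between -0.25 and 0.31 when 1 array was left out. The members of a pair were not tested against each other, and signals of different genes were not compared, since probes differ in brightness.

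**Figure D3:**
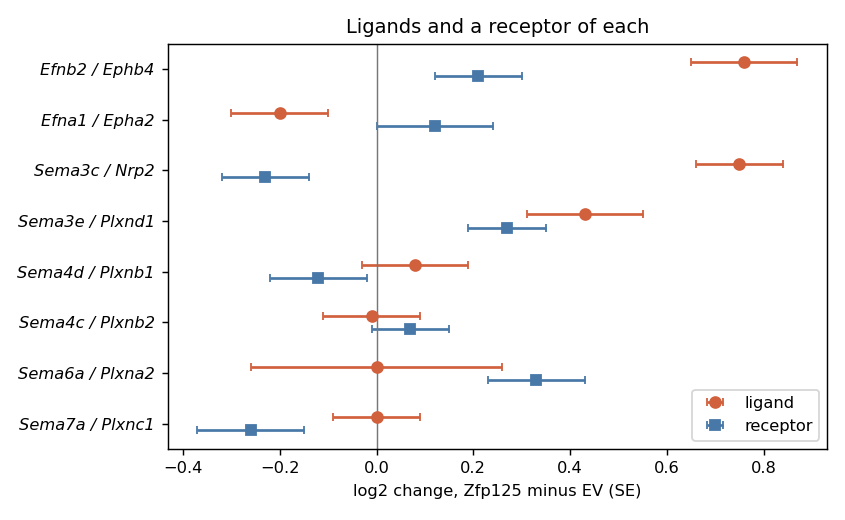
Log2 change (x axis, Zfp125 minus EV, with SE) of 8 ligands (orange circles) and of a receptor of each (blue squares). Efnb2 and Ephb4, and Sema3e and Plxnd1, lie on the same side of 0. Sema3c at 0.75 and Nrp2 at -0.23 lie on opposite sides, and the groups of Nrp2 overlap.

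Partners and signal transducers of these families (semaphorin co-receptors, plexin signalling, Eph and ephrin signalling) held 0 calls among 12, 26 and 24 measured genes (limma). At an unadjusted p under 0.05, 2, 1 and 2 were higher and 1, 2 and 0 lower, where 5.43% and 5.50% of all genes were. With a list of other guidance families, 87 genes were measured in 4 lists: 2 rose and 0 fell, where 0.446% of all genes rose, and the median was 0.01. Both that rose are among the 25 measured genes of other guidance families. They were Ntn4, a netrin of basement membranes, by 0.68 ± 0.08 from 5.81 ± 0.05 to 6.49 ± 0.07 (limma, adjusted p = 0.00122), and Flrt3, an adhesion protein that binds Unc5 receptors, by 0.83 ± 0.13 from 4.73 ± 0.23 to 5.56 ± 0.18 (limma, adjusted p = 0.0056). That list had a median of 0.10, and the netrin receptors Neo1 and Unc5c each had a change of 0.25, with adjusted p-values of 0.308 and 0.351. The lists were drawn up with the values of Ntn4 and Flrt3 known, so their calls lend the list no support.

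Among 12 co-receptors and partners of semaphorins 0 were called (limma). At an unadjusted p under 0.05, 2 lay above 0 and 1 below, where 5.43% and 5.50% of all genes did. Met, the hepatocyte growth factor receptor that associates with plexins of the B subfamily, had a change of 0.38 ± 0.10 (limma, adjusted p = 0.107), and the integrin chain Itgb1 of 0.35 ± 0.12 (limma, adjusted p = 0.233). Of 26 genes of plexin signal transduction 0 were called, with Rras, a small GTPase that plexins inactivate, at -0.32 ± 0.09 (limma, adjusted p = 0.148) and Farp1, a guanine nucleotide exchange factor, at 0.30 ± 0.09 (limma, adjusted p = 0.185). At an unadjusted p under 0.05 that list held 1 gene above and 2 below 0. Of 24 genes of Eph and ephrin signalling 0 were called and 2 lay above 0 at an unadjusted p under 0.05. These were Adam10, the membrane protease that sheds ephrins, at 0.45 ± 0.10, from 8.12 ± 0.19 to 8.57 ± 0.06 (limma, adjusted p = 0.0636), and the adaptor Nck2 at 0.24 ± 0.10 (limma, adjusted p = 0.384).

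The genes next to Sema3c, Efnb2, Efna2 and Sema6b on the chromosome were also examined. These neighbours, the nearest 3 measured protein-coding genes on each side in the GRCm38.p6 order, were looked at after the values of the ligands were seen. On the downstream side of Sema3c, Cd36, which takes up fatty acids, lay at -0.60 ± 0.15, the G protein subunit Gnat3 at -0.36 ± 0.10 and Gnai1 at -0.41 ± 0.10 (limma, adjusted p = 0.0813, 0.148 and 0.0901). All 3 lie opposite in sign to the rise of Sema3c. Mean levels in EV and Zfp125 cells were 4.92 and 4.32 for Cd36, 3.17 and 2.81 for Gnat3, and 7.06 and 6.65 for Gnai1. Gnat3 lay below the median of all clusters, 4.34, in both groups, and Cd36 in Zfp125 cells. On the other side of Sema3c, Hgf, Speer4f1 and Speer4f2 had changes of 0.01, -0.02 and 0.15, with mean levels of 2.58 to 2.94, among the dim clusters of the array.

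Around Efnb2 the 6 neighbours had changes between -0.19 and 0.20, and around Efna2 between -0.39 and 0.20, and 0 of these 12 were called (limma), with Pwwp3a at -0.27 ± 0.10 and Gamt at -0.39 ± 0.13 the only 2 at an unadjusted p under 0.05. Sema6b lies next to Lrg1, a secreted glycoprotein induced in inflammation, which fell by 1.49 ± 0.16 from 7.02 to 5.53 (limma, adjusted p = 0.000576). On the other side of Sema6b, Tnfaip8l1 had a change of -0.34 ± 0.11, and beyond Lrg1, Plin5 had one of -0.32 ± 0.11 (limma, adjusted p = 0.213 and 0.257). The remaining 3 of its 6 neighbours were Plin4 at 0.08 ± 0.09, Mydgf at -0.07 ± 0.09 and Dpp9 at -0.19 ± 0.08.

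**Figure D4:**
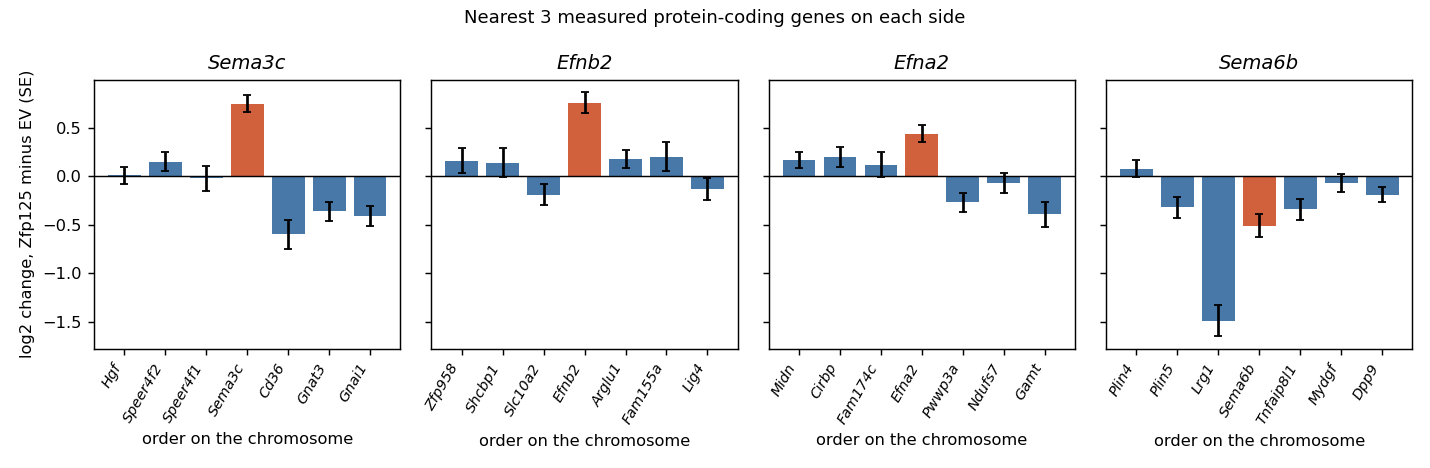
Log2 change (y axis, Zfp125 minus EV, with SE) of Sema3c, Efnb2, Efna2 and Sema6b (orange) and of the nearest 3 measured protein-coding genes on each side (blue), in chromosome order. Cd36, Gnat3 and Gnai1 lie below 0 beside the rise of Sema3c, and Lrg1 at -1.49 lies beside Sema6b.

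The calls of Sema3c and Efnb2 were the most stable under other ways of processing. Sema3c passed in each of 18 other settings, with a highest adjusted p of 0.0431 without variance moderation. Efnb2 passed in all of them except that one, with 0.0439 when all clusters of the table were tested.

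**Figure D5:**
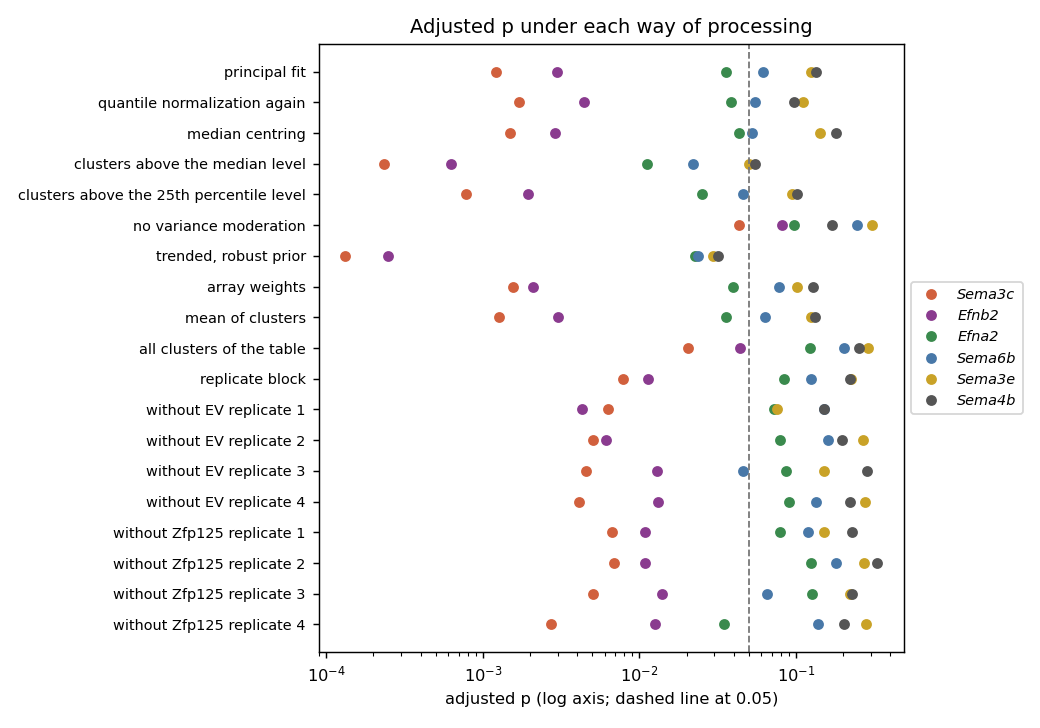
Adjusted p (x axis, log scale, dashed line at 0.05) of 6 ligand genes under the principal fit and 18 other settings (y axis). Sema3c stays left of the line in every setting, Efnb2 in all but the setting without variance moderation, and Efna2, Sema6b, Sema3e and Sema4b fall on either side of it, Sema3e and Sema4b left of it only with the trended, robust prior.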

How the data were processed

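The series holds 8 Affymetrix MoGene 2.0 ST arrays in 2 groups of 4. The deposited values are log2 expression per transcript cluster. The scale was read from the values, and the authors used Affymetrix Expression Console and Transcriptome Analysis Console, per the submitters' processing notes. Versions, background correction, normalization and detection calls were not given in the sources used here. Pearson correlations between arrays over all clusters were 0.977 to 0.984. Precision is limited by the number of arrays.

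The RefSeq table of GRCm38.p6 updated symbols by Entrez identifier. Of 41345 clusters, 23521 carried 1 symbol, 1814 several and 16010 were unnamed here. The brightest cluster of each gene was used (22180 genes, with no filter on low values), and 17 of the 53 genes lay below the median level of all clusters. Zfp125 was tested against EV in R 4.3.3 by limma 3.58.1 with lmFit and eBayes, two-sided, adjusted by Benjamini-Hochberg over all genes. The gene test was tested on simulated data. Alternatives changed the normalization, the dim-cluster filter, the moderation, array weights, the cluster choice, the features tested and the replicate block, or left out each array. Figures used matplotlib 3.10.9.

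The genes and lists were chosen with earlier results of these data known. Named are the called genes, those with an unadjusted p under 0.05, the 2 of smallest p and the 2 brightest of the semaphorins, plexins, neuropilins and each ephrin and Eph subfamily, genes whose clusters differ by over 0.5, and in each list the called genes and the 2 of smallest p. The pair partners, the neighbours and the remaining genes named were added after their values were seen. Of the 92 genes in the 4 lists of partners, signal transduction and other guidance families 87 were measured. Promoters came from the RefSeq table for 46 of the 53 genes.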

Additional observations from a re-analysis of the deposited data

Results flagged for a closer look

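In a group of 4 arrays, a sample was taken as far from the others when its gap to the nearest, over the group's range, passed Dixon's 95% critical value. Of 106 groups (53 genes in 2 groups) 6 met this, and about 1 in 20, or 5.3, would by chance. In Zfp125 replicate 2 these were Sema4b at 7.36 (the others 7.16 to 7.17), Sema4g at 7.02 (6.69 to 6.74) and Efna4 at 5.13 (5.25 to 5.26). In EV replicate 4 Sema4g read 7.10 (6.70 to 6.75), in EV replicate 2 Plxnb1 read 5.96 (6.18 to 6.20), and in Zfp125 replicate 4 Epha6 read 4.08 (3.78 to 3.82). Without Zfp125 replicate 2 the change of Sema4b was 0.28.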

How the results depend on the processing

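The numbers are not known to pair the arrays. Deviations of same-numbered arrays from their group means correlated at -0.05, -0.05, 0.04 and -0.01. With the replicate block, 2 genes of the group were called higher and 0 lower, and 152 of all genes were called against 240. Of 25 named genes over 18 settings (446 values), 427 kept direction and side of the threshold, 11 calls ended, 6 were gained and 2 directions turned, those of Ephb1 with the mean of its clusters (0.15) and of Epha4 without replicate 4 of the Zfp125 cells (-0.03, in a range of -0.03 to 0.12 over the omissions of an array). Genes called higher numbered 1 when variances were not moderated and 5 with a trended, robust prior. With that prior, and among clusters above the median or the 25th percentile level, 1 gene was called lower, Sema6b. Leaving out 1 array gave 2 to 3 higher and 0 to 1 lower, the 1 being Sema6b without EV replicate 3. Ligand medians then ran from 0.02 to 0.08 and receptor medians from -0.01 to 0.04. Genes called higher in the 4 lists of partners, signal transduction and other guidance families, 2 in the principal fit, numbered 4 above the median level, 1 without moderation, 5 with the trended prior, 1 over all clusters and 2 to 4 when 1 array was left out (4 without EV replicate 1), and 1 was lower with the trended prior. The filter above the median level tested fewer genes, 13197, and the cause of these shifts, with that filter or otherwise, was not tested. No second cluster of Plxna1, Plxnb1 or Ephb1 was called in the 16 settings in which they were tested (limma), though that of Ephb1 was not tested among clusters above the median level; at an unadjusted p under 0.05 in the principal fit there was 1, of Ephb1. Without a detection call, values of dim genes such as Sema3d (2.82) may be background. The caution is not limited to the dimmest genes. Neuron and glia markers had EV means from 3.21 (S100b) to 5.72 (Map2), a range that holds the EV means of Efna2 (4.83) and Sema3c (5.44). The EV mean of Sema6b (5.59) lies in that range too, and that of Efnb2 (5.76) just above it. Whether any of these genes lay above background in EV cells was not tested.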
